A study of Rattus norvegicus with 2 samples.

Results

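The genes of synaptic vesicle release, the machinery that docks vesicles and fuses them with the membrane, were compared in dorsal root ganglia (DRGs) between the tumor side and the control side of rats with a bone tumor. Members were all genes of the array whose symbol belongs to the SNAREs (Snap, Stx and Vamp genes), the syntaxin-binding proteins (Stxbp), complexins (Cplx), synaptotagmins (Syt), synaptotagmin-like proteins (Sytl), Sv2 proteins, synapsins (Syn), the disassembly factors Nsf, Napa and Napb, or any symbol that begins with Rab3. This name rule gave 78 genes of 14217, measured by 116 of 31042 probe sets. The rule is one of names, so it also took in 11 GTPases from Rab30 to Rab39a, which are not Rab3 isoforms, and Snap91, which encodes the clathrin adaptor AP180 and not a SNARE. The rats were 4-week-old female Sprague-Dawley rats whose right tibial marrow had been inoculated with 100000 cells of IP-B12, a pulmonary carcinoma line of the rat that destroys bone as it grows. After 14 days, DRGs of the right side (the tumor side) and DRGs of the left side (the control side) were collected, and RNA of each side was hybridized to 1 array. The control side therefore came from rats that carried the tumor too. The methods state neither how many rats the RNA came from nor a sham injection of the left tibia, so that tumor and inoculation cannot be told apart in these 2 arrays.

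Vesicles fuse when a SNARE on the vesicle, such as VAMP2, zips up with syntaxin and SNAP-25 on the plasma membrane. Synaptotagmins sense the calcium that triggers fusion, complexins hold and promote the half-zipped complex, and NSF with its adaptors, the alpha- and beta-SNAPs, takes the spent complex apart. Rab3 GTPases and synapsins bring vesicles to the membrane and keep them in reserve. In sensory neurons (SNs) the cell body lies in the DRG and transcribes these genes, while release of glutamate and peptides such as CGRP takes place at the far ends of the axon, in the spinal cord and in peripheral tissue.

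With 1 array on each side there was no replicate error and no test, and each difference describes these 2 arrays. A signal is the MAS 5.0 intensity of a probe set, a group of short probes against 1 transcript, on a linear scale. A log2 ratio compares the tumor-side signal with the control-side signal, and a positive one means a higher tumor-side signal. A gene was said to be above the signal rule where at least 1 of its signals reached the median of its array, 72.7 on the tumor-side array and 69.0 on the control-side array. Signals of different probe sets are not read as relative amounts of their transcripts, since each binds its transcript differently. Bright and dim refer to signal only, and a summed signal of markers is led by its brightest probe sets. The median gene above the signal rule had a log2 ratio of 0.080, so positions are given against this median gene as well as against 0. Centring the arrays takes 0.083 off every log2 ratio, and the sign of ratios between 0 and 0.083 turns with that choice. SN markers were bright on both arrays, with peripherin (Prph) at 8852 on the tumor side and 8896 on the control side. Of 12 measured SN markers, all were above the rule and 11 had a ratio below that of the median gene, with a median log2 ratio of -0.036. In whole ganglia, fewer cells of a type and less RNA per cell cannot be told apart.

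Release machinery genes differed little between the sides. The signal rule was met by 58 of the 78 members. None of the 58 was higher on the tumor side by a fold of 2 or more, where 0.134% of all 9695 genes above the rule were. None was lower by that fold, against 0.186% of all genes. At a fold of 1.5 there was again no member in either direction, against 1.19% of all genes that were higher and 0.743% that were lower. At any of these shares fewer than 1 of 58 genes would be counted, so the absence of such members does not set them apart. The 58 log2 ratios ran from -0.48 to 0.46, with a median of 0.068 and quartiles at 0.008 and 0.17. The same quartiles over all genes above the rule were -0.019 and 0.18. Of the 58, 27 had a ratio above that of the median gene and 31 below it. Over all 78 members the median was also 0.068, against 0.079 over all 14217 genes. Of the 58, 57 reached the array median on both sides, and only Syt8 did so on the control side alone.

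**Figure D1:**
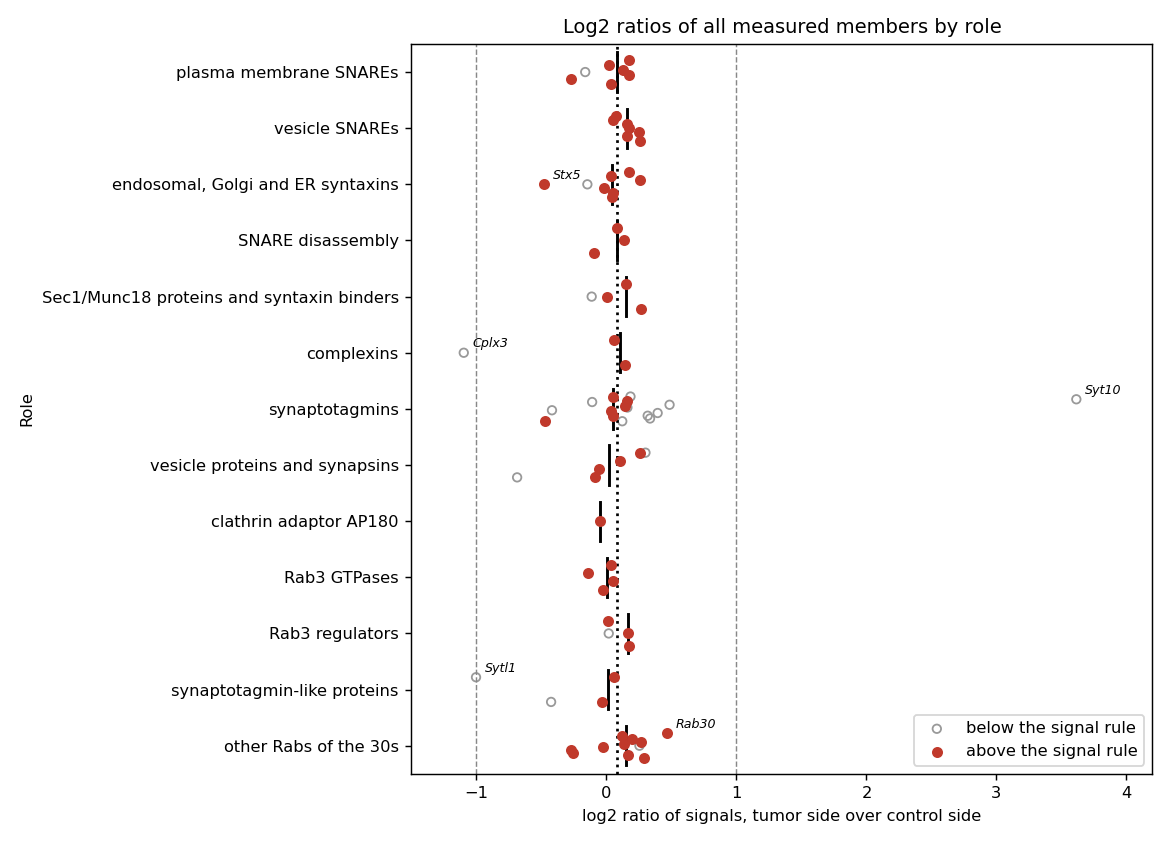
Log2 ratio (tumor-side to control-side signal) (x axis) for all 78 members, in rows by role, with 1 point per gene. Filled points are the 58 members above the signal rule, open points the 20 below it, black bars the median of the filled points, the dotted line the median gene (0.080) and the dashed lines a fold of 2. All filled points lie between -0.48 (Stx5) and 0.46 (Rab30), and only open points reach the dashed lines.

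A smaller fold of 1.2, chosen after the values were seen, separated 8 of the 58 members. Higher on the tumor side by this fold were 4 members, 6.90% of the 58, against 12.0% of all genes above the rule. These were Rab30, Rab38, Rab33a and Stxbp6. Lower by this fold were also 4 members, 6.90%, against 3.99% of all genes, namely Stx5, Syt8, Stx3 and Rab35. Of these, Syt8 met the signal rule only through the control side, where it was higher, so its place among the lower members is partly set by the rule. The split depended on the scaling of the arrays. With the log2 ratios centred on their median, after quantile normalization or after loess, only Rab30 was still 1.2 times higher, and Rab36 joined the other 4 as lower. Snap25, Vamp1 and Vamp2, the SNAREs of neuronal release, were not among the 8.

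Of the plasma membrane SNAREs of neurons, Snap25 had nearly equal signals on both sides, while Stx1a gave no clear ratio. Snap25, the plasma membrane SNARE of neurons that is cut by botulinum toxin A, had 9386 on the tumor side and 9270 on the control side, a log2 ratio of 0.018. Its ubiquitous relative Snap23 had 285 on the tumor side and 253 on the control side (log2 ratio 0.17), and a second probe set of Snap23 gave 0.19. Snap29, which serves fusion inside the cell, had 620 on the tumor side and 569 on the control side. Snap23 and Snap29 thus lay above the median gene and Snap25 below it, though Snap25 was above the median gene after quantile normalization. Stx1a, which encodes the syntaxin of the neuronal fusion complex, did not meet the signal rule, with 57.8 on the tumor side and 64.7 on the control side. A dimmer probe set of Stx1a pointed the other way, with 22.7 on the tumor side and 3.91 on the control side. The control-side value is below the highest trp control probe set of that array (5.39), which is directed against a bacterial transcript. These arrays thus give no ratio for Stx1a that its probe sets share. Among the other plasma membrane syntaxins, Stx3, used at ribbon synapses and for apical delivery, had 85.8 on the tumor side and 104 on the control side (log2 ratio -0.28). A dim second probe set of Stx3, below the rule, gave -1.45. Stx4, which serves exocytosis in most cells, had 459 on the tumor side and 447 on the control side. Stx11, a syntaxin of immune cells, had 121 on the tumor side and 107 on the control side. Of the 6 plasma membrane SNAREs above the rule, 3 lay above the median gene and 3, Stx3, Stx4 and Snap25, below it.

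**Figure D2:**
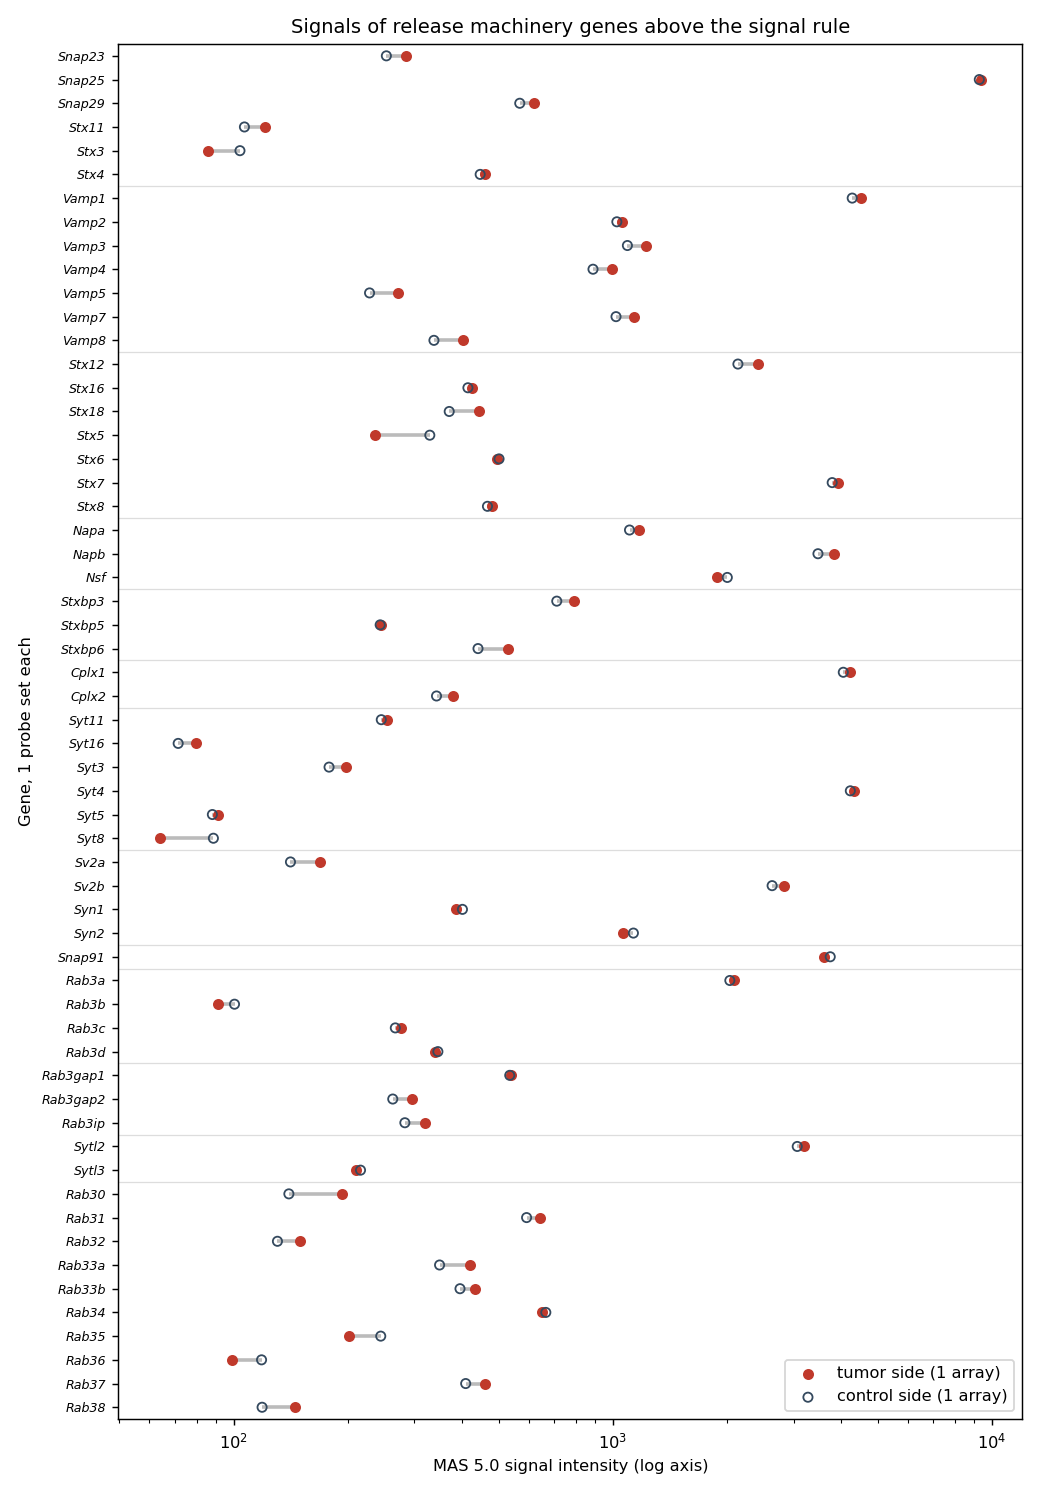
MAS 5.0 signal on the tumor side (filled) and the control side (open) for the 58 members above the signal rule, on a log axis, 1 row and 1 probe set per gene, with thin lines between roles. The points of a gene nearly coincide for Snap25 (9386 on the tumor side, 9270 on the control side) and lie farthest apart for Stx5 (235 on the tumor side, 329 on the control side).

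The vesicle SNAREs were all above the rule, with a median log2 ratio of 0.16, and 5 of the 7 exceeded the median gene. All 7 had a ratio above 0, as did 6871 of the 9695 genes above the rule, and for Vamp1 and Vamp2 the sign turned after centring. Vamp1, the synaptobrevin of many sensory and motor neurons, had 4516 on the tumor side and 4284 on the control side (log2 ratio 0.076). Vamp2, the synaptobrevin of most central synapses, had 1061 on the tumor side and 1026 on the control side (0.049). These neuronal isoforms were the only 2 of the 7 below the median gene, Vamp1 by little. A second probe set of Vamp1, with 1099 on the tumor side and 932 on the control side, gave 0.24. A dim second probe set of Vamp2, below the rule, had 5.73 on the tumor side and 20.4 on the control side (-1.83). After quantile normalization and loess Vamp1 had 0.012 and 0.014, above the median gene of these settings (-8.5e-05 and -0.00036). Vamp3, or cellubrevin, found in most cell types, had 1222 on the tumor side and 1094 on the control side (0.16). Vamp7, which is known for insensitivity to tetanus toxin and for a part in neurite growth, had 1137 on the tumor side and 1021 on the control side (0.16). Vamp4, of the Golgi and endosomes, had 998 on the tumor side and 887 on the control side (0.17). The ratios were largest for Vamp8 and Vamp5. Vamp8, which serves granule release in blood cells and endosome fusion, had 404 on the tumor side and 338 on the control side (0.26). Vamp5, or myobrevin, which is known from muscle cells, had 272 on the tumor side and 228 on the control side (0.25), and its 2 other probe sets were dim, 1 of them below the trp controls on both arrays. Muscle markers went the other way on these arrays, all 7 measured being lower there by a fold of 2 or more (median log2 ratio -1.78), with summed signals of 405 on the tumor side and 1235 on the control side. Their part in the ratio of Vamp5 was not tested. None of the 7 vesicle SNAREs reached a fold of 1.2.

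Syntaxins of the endosome, Golgi and endoplasmic reticulum had a median log2 ratio of 0.040, with Stx5 below and Stx18 and Stx12 above the median gene by more than the SD between probe sets at their signal. Stx5, which encodes the Golgi syntaxin, had the lowest ratio of all members above the rule, with 235 on the tumor side and 329 on the control side (log2 ratio -0.48). A second, dimmer probe set of Stx5 went the other way, with 59.6 on the tumor side and 44.4 on the control side (0.43), so that the mean over both was -0.029. The lower Stx5 signal thus rests on 1 probe set. Stx18, of the endoplasmic reticulum, had 444 on the tumor side and 371 on the control side (0.26). Stx12, an endosomal syntaxin, had 2414 on the tumor side and 2140 on the control side (0.17), and its second probe set gave 0.13. Stx7 had 3935 on the tumor side and 3793 on the control side, and Stx8 had 481 on the tumor side and 468 on the control side, both being partners in late endosome fusion. Stx16 had 426 on the tumor side and 415 on the control side, and Stx6 had 496 on the tumor side and 502 on the control side. On their brightest probe sets Stx7, Stx8, Stx16 and Stx6 all lay within a log2 distance of 0.1 of the median gene. A dim second probe set of Stx6, below the rule, had 29.5 on the tumor side and 18.3 on the control side (0.69). Stx17, the syntaxin of autophagosomes, stayed below the signal rule with 20.5 on the tumor side and 22.6 on the control side.

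Genes that take the SNARE complex apart were bright, with log2 ratios from -0.094 to 0.14. Napb, the beta-SNAP of neurons, had 3829 on the tumor side and 3479 on the control side (log2 ratio 0.14). Napa, the alpha-SNAP of all cells, had 1170 on the tumor side and 1108 on the control side (0.079). Nsf, the ATPase that both recruit, was dimmer on the tumor side, with 1879 there and 2006 on the control side (-0.094). A second probe set of Nsf gave -0.13 and another gave 0.062. Of the proteins that bind the complex or its syntaxins, Stxbp6 differed most among those above the rule. Cplx1, a complexin of fast synapses, had 4233 on the tumor side and 4058 on the control side (0.061). Cplx2 had 379 on the tumor side and 343 on the control side (0.14). Cplx3, which is known from ribbon synapses, had 3.03 on the tumor side and 6.48 on the control side. The tumor-side value is below the highest trp control probe set of its array (4.63), and no fold is given. Of the syntaxin binders, Stxbp6, or amisyn, which competes for the SNARE complex, had 531 on the tumor side and 441 on the control side (0.27), with 0.24 on its second probe set. Stxbp3, a syntaxin binder of most cells, had 791 on the tumor side and 712 on the control side (0.15). Stxbp5, or tomosyn, had 245 on the tumor side and 244 on the control side (0.007), with 0.25 on its second probe set above the rule. Stxbp2, a syntaxin binder of immune and epithelial cells, was below the signal rule, with 52.8 on the tumor side and 57.1 on the control side.

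Of 16 synaptotagmins, only 6 were above the signal rule. Syt4, which is known from dense core vesicles, had 4342 on the tumor side and 4235 on the control side (log2 ratio 0.036), with 0.23 on its second probe set. Syt11, a synaptotagmin that does not bind calcium, had 254 on the tumor side and 245 on the control side (0.048). Syt3 had 198 on the tumor side and 179 on the control side (0.15), Syt5 had 90.9 on the tumor side and 87.9 on the control side, and Syt16 had 79.7 on the tumor side and 71.5 on the control side. Syt3 and Syt16 (0.16) lay above the median gene and Syt4, Syt5 and Syt11 below it. Syt8 had 63.8 on the tumor side and 88.5 on the control side (-0.47), the second lowest ratio above the rule, which it met through the control-side signal alone. The fast calcium sensors of neurotransmitter release lay just below the rule. Syt1 had 65.8 on the tumor side and 57.9 on the control side, Syt2 had 63.2 on the tumor side and 48.1 on the control side (0.39), and Syt9 had 65.8 on the tumor side and 60.5 on the control side. Their ratios were all above the median gene, at signals where log2 ratios of probe sets of the same gene had an SD of 0.33 (Syt1), 0.36 (Syt2) and 0.32 (Syt9). Syt7, a slow calcium sensor, had a log2 ratio of 0.34 below the rule, and its other 2 probe sets had at least 1 signal below the trp controls, so that no ratio is given for them. Of the members below the rule, Syt10 alone passed a fold of 2 upwards, with 28.5 on the tumor side and 2.33 on the control side. The control-side signal was below the trp control probe sets of that array (5.39), so no fold is given, and Syt10 has no second probe set. The other members of the family below the rule were Syt6 (0.32), Syt13 and Syt15, with more signal on the tumor side, and Syt12 and Syt17 (-0.42), with less, and none of these 5 passed a fold of 2. Without the signal rule, a fold of 2 was passed upwards by 4.31% and downwards by 3.71% of all 14217 genes, and by 1 (Syt10) and 2 (Cplx3 and Sytl1) of the 78 members.

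Proteins of the vesicle surface gave small ratios of either sign. Sv2b, an SV2 glycoprotein that botulinum toxin A can use to enter neurons, had 2831 on the tumor side and 2634 on the control side (log2 ratio 0.10), with 0.12 on its second probe set. Another probe set of Sv2b, dim and below the rule, gave -0.80. Sv2a, the isoform that levetiracetam binds, had 169 on the tumor side and 141 on the control side (0.26). Sv2c was below the rule with 27.4 on the tumor side and 22.2 on the control side. The 3 Sv2 genes thus lay above the median gene, and the synapsins above the rule below it. Syn1, which tethers vesicles of the reserve pool, had 385 on the tumor side and 402 on the control side (-0.060), with -0.18 on its second probe set. Syn2 had 1068 on the tumor side and 1134 on the control side (-0.087), with -0.020 and 0.089 on its other probe sets. Syn3 was not above the trp control probe sets on either array. Snap91 (AP180), which recovers vesicle membrane through clathrin, had 3615 on the tumor side and 3749 on the control side (-0.052). Its second probe set, dim and below the rule, went the other way, with 51.4 on the tumor side and 31.4 on the control side (0.71).

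Rab3 GTPases, which carry vesicles to the release site, were all below the median gene, with a median log2 ratio of 0.004. Rab3a, the main isoform of synapses, had 2083 on the tumor side and 2037 on the control side (0.032), with 0.084 on its second probe set. Rab3c had 277 on the tumor side and 267 on the control side (0.050). Rab3d, an isoform of secretory granules, had 340.4 on the tumor side and 346 on the control side (-0.023). Rab3b had 91.1 on the tumor side and 101 on the control side (-0.14). The 4 isoforms differed from each other by less than the SD of 0.25 between probe sets at the signal of Rab3b. Among the genes above the rule grouped by name as Rab3 regulators, Rab3gap1 and Rab3gap2 had log2 ratios of 0.013 and 0.17. They encode the subunits of the Rab3 GTPase-activating complex. Rab3ip, also known as Rabin8, had 0.17 with 0.22 on its second probe set. Among the synaptotagmin-like proteins, which bind Rab27, Sytl2 had 3189 on the tumor side and 3068 on the control side (0.056), and Sytl3 had 211 on the tumor side and 216 on the control side (-0.035). Sytl1, below the signal rule, had 22.2 on the tumor side and 44.6 on the control side, a ratio past a fold of 2, at a signal where probe sets of the same gene had an SD of 0.54. Sytl4 and the Rab3 regulator Rab3il1 were also below the rule, and neither passed a fold of 2.

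The GTPases from Rab30 to Rab39a spread more widely than the Rab3 isoforms, with 7 of 10 above the median gene and a median log2 ratio of 0.15. Rab30, a Rab of the Golgi, had the highest ratio of all members above the rule, with 193 on the tumor side and 140.0 on the control side (0.46). Its second probe set, with 106 on the tumor side and 99.9 on the control side, gave only 0.089. Rab38, known from melanosome and lysosome-related organelle traffic, had 145 on the tumor side and 119 on the control side (0.28). Rab33a had 421 on the tumor side and 349.5 on the control side (0.27). Rab35, of endosome recycling, had 202 on the tumor side and 245 on the control side (-0.27), and Rab36 had 99.1 on the tumor side and 119 on the control side (-0.26). The other 5 above the rule were Rab31 (0.12), Rab32 (0.20), Rab33b (0.13) and Rab37 (0.17), above the median gene, and Rab34 (-0.030), below it. Dim second probe sets of Rab31 and Rab34, below the signal rule, gave 0.59 and 0.35. Rab39a was below the signal rule, with 9.51 on the tumor side and 7.98 on the control side. Without these GTPases the median of the members above the rule was 0.054 over 48 genes.

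Probe sets of the same gene offered a technical spread, as there were no replicates. They were read from the same 2 arrays, so this spread does not hold variation between animals, dissections or arrays. For 15 members with at least 2 probe sets above the rule, the distance between the lowest and the highest log2 ratio had a median of 0.071 and reached 0.38 for Rab30. Of these 15, 9 had all their ratios on 1 side of the median gene, while Cplx1, Rab3a, Stxbp5, Syn2, Syt4 and Vamp1 had ratios on both sides of it. Against 0, Nsf and Syn2 had ratios of both signs. Dim probe sets scattered far more. A fold of 2 was passed by 12 of the 41 member probe sets below the rule, 6 in each direction, and by none of the 75 above it. Of these 12, 7 had a signal no brighter than the trp controls of its array, so their ratios have no exact size. The SD of the log2 ratios was 1.10 over the 41 below the rule and 0.16 over the 75 above it.

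**Figure D3:**
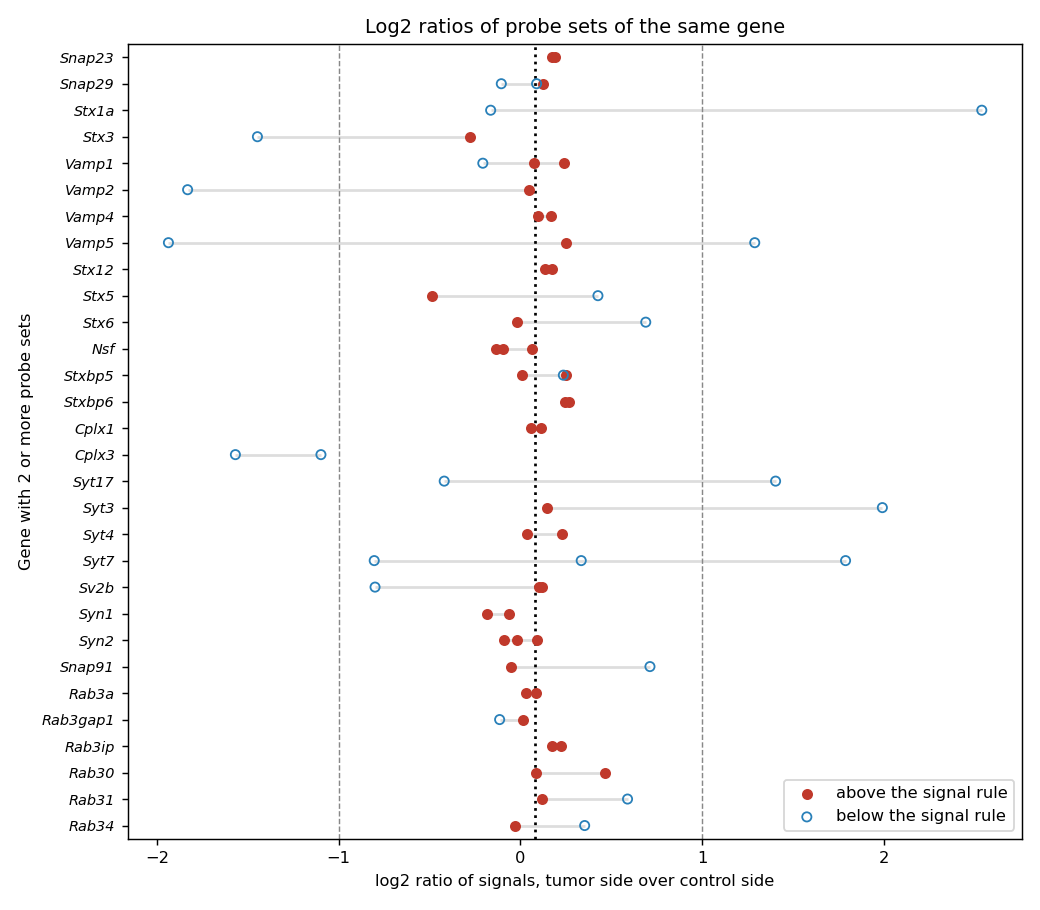
Log2 ratio (tumor-side to control-side signal) (x axis) for every probe set of the 30 members with 2 or more, 1 row per gene, filled above and open below the signal rule, with the median gene (0.080) dotted and a fold of 2 dashed. Filled points of a gene lie at most 0.38 apart (Rab30), while open points, some with a signal no brighter than the trp controls, scatter past the dashed lines on both sides.

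Over all genes the SD between probe sets of the same gene narrowed with signal, with 0.56 around a signal of 30, 0.25 around 100, 0.16 around 300, 0.097 around 1000 and 0.064 around 3000. Set against this spread, 16 of the 58 members, 27.6%, were farther from the median gene than 1 SD at their signal, whereas 35.7% of all genes above the rule were. Among these 16 were Snap25, Nsf, Snap91, Syn1 and Syn2 below the median gene and Stx12, Stx18, Vamp8, Stxbp6, Rab33a and Rab30 above it. The remaining 5 were Stx3, Stx5, Syt8, Rab35 and Rab36, all below it. For the bright genes the SD is narrow, so that Snap25, 0.018 against 0.080, counted among the 16 at an SD of 0.041, which rests on 14 genes. The place of Snap25 depended on the scaling. After quantile normalization it had 0.022, above the median gene (-8.5e-05), and after loess -0.027, below the median gene (-0.00036) by less than that SD. Of the 17 members with a signal of 1000 or more on either array, the median log2 ratio was 0.056, against 0.079 for all 2176 such genes, and 12 of the 17 lay below the median gene.

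**Figure D4:**
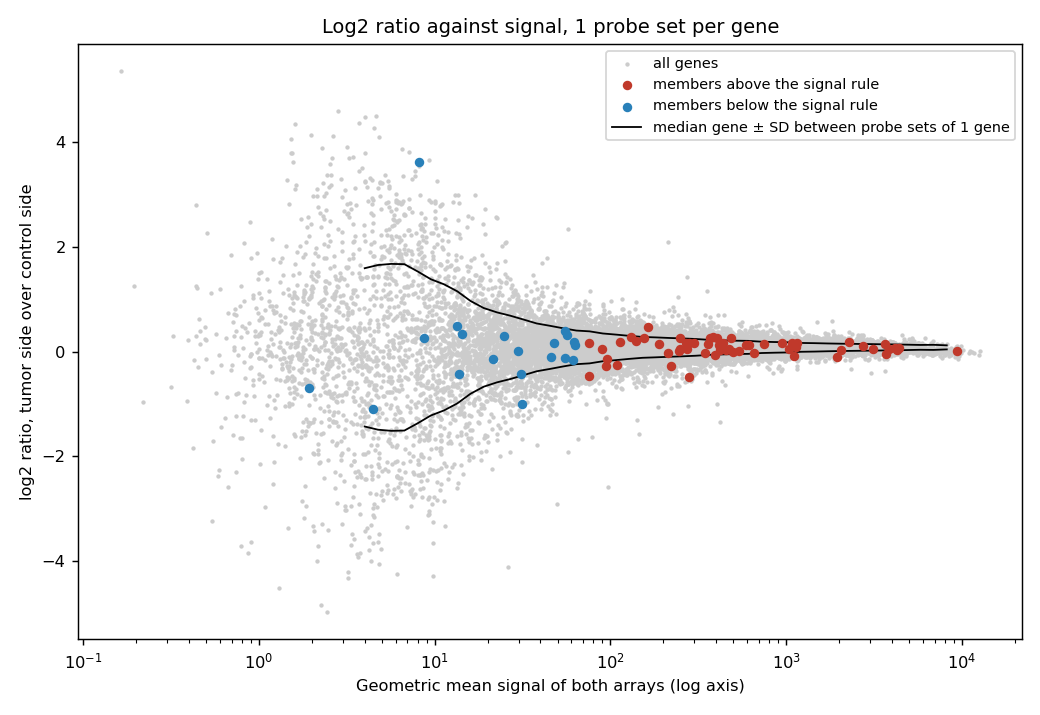
Log2 ratio (tumor-side to control-side signal) (y axis) against the geometric mean signal of both arrays (log x axis), 1 point per gene, with all genes in grey, members above the signal rule in red and members below it in blue. The black lines mark the median gene (0.080) plus and minus 1 SD between probe sets of the same gene at that signal, and 16 of the 58 red points lie outside them.

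The study followed the phosphorylation of CREB in DRGs of mice with breast cancer in the tibia, and reports no such measurement for these rats. The promoters were therefore searched for the cAMP response element to which CREB binds, the letters TGACGTCA, which read the same on both strands. RefSeq promoter windows on the assembly GRCr8, of 250 bases before and 50 after a transcript start, were at hand for 62 of the 78 members, in 68 windows. The element was found in 3 of these windows (4.41%), against 1.83% of all 33469 windows and 2.71% of the 13192 windows of genes on the array. The shorter letters TGACG or CGTCA, a part of the full element, were in 29.4% of the members' windows, 21.2% of all and 28.1% of those of genes on the array. The 3 windows belonged to Napa, Vamp1 and Syn1, each printed here because it shows where the letters lie, with the element in capitals and up to 30 bases on either side. The last base of the element lay 52, 64 and 183 bases before the transcript start of Napa, Vamp1 and Syn1.
Napa (chr1:85915346-85915413, plus strand): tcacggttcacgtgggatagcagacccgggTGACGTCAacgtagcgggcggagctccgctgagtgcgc
Vamp1 (chr4:159698793-159698860, plus strand): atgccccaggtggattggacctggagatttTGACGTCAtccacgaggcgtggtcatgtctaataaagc
Syn1 (chrX:3725525-3725592, plus strand): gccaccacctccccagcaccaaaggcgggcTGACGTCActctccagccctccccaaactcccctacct

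The log2 ratios of these 3 genes, given above, ran from -0.060 to 0.079, with a median of 0.076. The other 45 members with a window and above the rule had a median of 0.061. A match of letters does not show that a factor binds there.

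Other genes of vesicle release, from 6 lists of textbook members, were measured beside them. The lists were active zone and priming, vesicle membrane proteins and transmitter transporters, vesicle endocytosis, dense core vesicles, SNAREs outside the name rule, and the exocyst. Of 79 such genes above the signal rule, 1 passed a fold of 2 downwards on the tumor side and none upwards, against 0.186% and 0.134% of all genes above the rule. A count of 1 does not set the lists apart. Active zone and priming genes had a median log2 ratio of -0.012 over 15 genes above the rule, of which 12 lay below the median gene. Apba1, or Mint1, an adaptor protein of synapses, differed most among them, with 2088 on the tumor side and 2637 on the control side (-0.34). It was followed by Ppfia1, or liprin-alpha1, with 249 on the tumor side and 294 on the control side (-0.24). Genes of the vesicle membrane and of transmitter uptake had a median of 0.033 over 13 genes. Syngr2, a synaptogyrin of non-neuronal cells, had 120.0 on the tumor side and 86.6 on the control side (0.47), and Slc30a3, a zinc transporter of vesicles, had 82.4 on the tumor side and 61.6 on the control side (0.42). Syp, or synaptophysin, and Slc17a6, the vesicular glutamate transporter VGLUT2, were level, with log2 ratios of -0.030 and -0.021 (named after their values were seen).

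Vesicle endocytosis genes had a median of -0.020 over 21 genes, with 16 below the median gene. The gene past a fold of 2 was Bin1, or amphiphysin 2, which shapes membranes in neurons and in the T-tubules of skeletal muscle, with 264 on the tumor side and 669.9 on the control side (-1.34). The 7 muscle markers were lower on the tumor side as well, with log2 ratios from -2.90 to -1.04, and their part in the ratio of Bin1 was not tested. Sh3gl1, an endophilin, was next, with 91.6 on the tumor side and 119 on the control side (-0.38). Dense core vesicle genes had a median of 0.070 over 12 genes, with the prohormone convertase Pcsk2 at 157 on the tumor side and 115 on the control side (0.45) and Pcsk1n, the inhibitor proSAAS of another convertase, at 545 on the tumor side and 497 on the control side (0.13). SNAREs outside the name rule had a median of 0.12 over 11 genes, with Ykt6 at 426 on the tumor side and 342 on the control side (0.31) and Vti1b at 75.5 on the tumor side and 89.1 on the control side (-0.24). Of the 7 measured exocyst genes, 5 were above the median gene, and the list had a median of 0.11, led by Exoc1 at 92.6 on the tumor side and 77.0 on the control side (0.27) and Exoc6 at 218 on the tumor side and 188 on the control side (0.21).

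**Figure D5:**
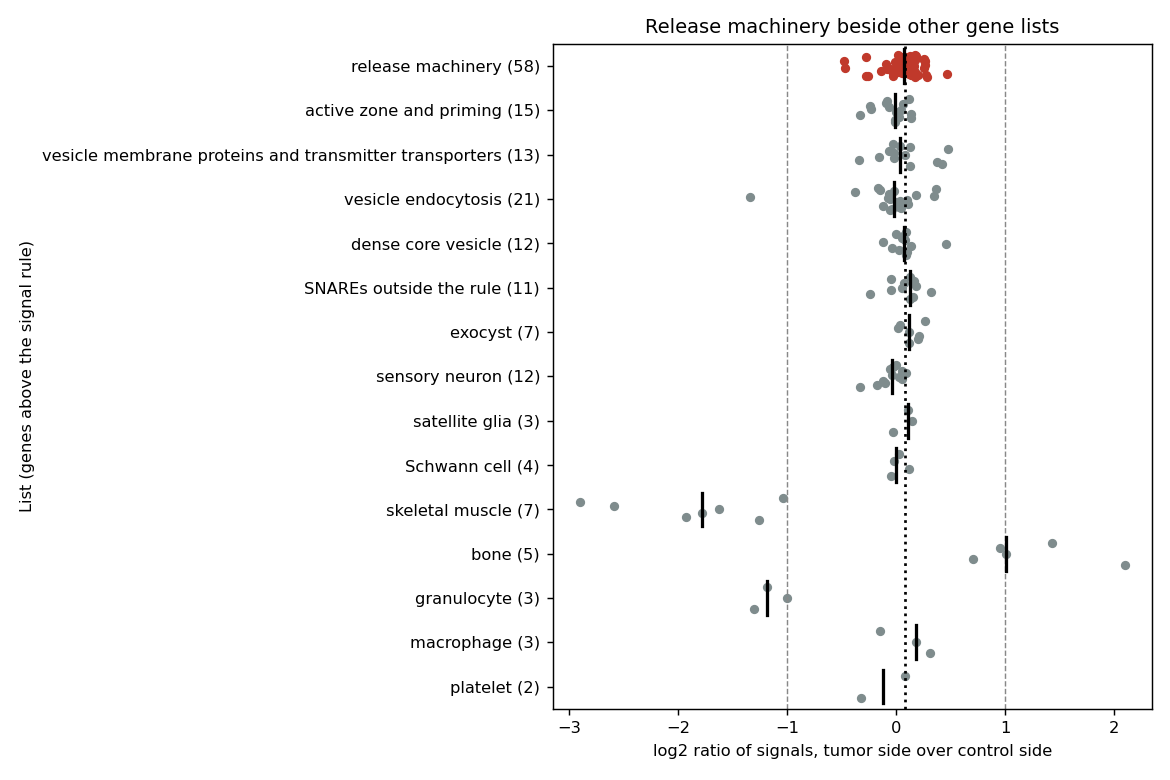
Log2 ratio (tumor-side to control-side signal) (x axis) for genes above the signal rule, 1 point per gene, in rows for the release machinery (red), 6 related lists and marker lists of cell types with at least 2 such genes (grey), with the number of genes in brackets, black bars at the medians, the median gene dotted and a fold of 2 dashed. The release machinery lies around the median gene, apart from skeletal muscle (median -1.78) and granulocyte markers (-1.19) on the lower and bone markers (1.01) on the higher side.

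Markers of some other cell types differed by more than any release machinery gene above the rule. Besides the muscle markers, all 5 measured bone markers were above the rule and higher on the tumor side, with a median log2 ratio of 1.01 and summed signals of 1809 on the tumor side and 797 on the control side. Of the granulocyte markers, 3 of 4 measured were above the rule, with a median of -1.19, and the summed signal of the 4 was 559 on the tumor side and 1164 on the control side. The marker below the rule, Camp, went the other way, with 30.9 on the tumor side and 23.6 on the control side (0.39). Mast cells and platelets release granules by the same families of SNAREs, and 0 of 6 mast cell markers and 2 of 4 platelet markers were above the rule. The summed signals of the 6 mast cell markers were 143 on the tumor side and 174 on the control side, and 2 of the 6 did not exceed the trp controls on either array. Those of the 4 platelet markers were 274 on the tumor side and 296 on the control side. Of 4 measured macrophage markers, 3 were above the rule, with a median log2 ratio of 0.18. The summed signals of the 4 were 694 on the tumor side and 603 on the control side. Above the rule, Aif1 (0.18) and Csf1r (0.31) were higher on the tumor side and Cd68 (-0.15) was lower. The part of granulocytes, mast cells, platelets and macrophages in the ratios of Vamp8, Snap23 and Stx11 was not tested.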

How the data were processed

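RNA of DRGs from each side was labelled and hybridized to Affymetrix rat genome arrays, 1 per side. The authors computed a signal intensity for each probe set with MAS 5.0 (MAS5 in the submitters' notes) at default settings, and the deposited intensity values are on a linear scale. A scaling target was not given in the sources used here, and no genome build is named for them. Detection calls were not used here.

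No further normalization or pseudocount was applied. Control probe sets (57) were left out. Each gene was represented by its brightest probe set on average (mean log2 signal) among those with 1 symbol, and the gene identifiers of all 78 members matched the RefSeq annotation of GRCr8 under the same symbols. The spread between probe sets was the pooled SD of log2 ratios within genes, over probe sets within a fold of 2 of a signal. Genes were named if they belong to the fusion core, if they were among the 10 members above the rule with the largest log2 ratio in size, if they passed a fold of 2, or if they were among the 2 largest of another list. Other members were named to complete a role. Members and lists were chosen with earlier results of these data known. The scripts were tested on simulated data. Alternatives were quantile normalization, centring on the median, loess (span 0.3), a pseudocount of 11.1, stricter or no signal filters, the mean over all probe sets, removal of probe sets open to cross-hybridisation, and folds of 1.5 and 3. A fold of 1.2, the members without Rab30 to Rab39a and the members with a signal of 1000 or more were added after seeing the data. Calculations used pandas 2.3.3 and numpy 2.4.6 in Python 3.11.15, with loess from statsmodels 0.14.6 and plots from matplotlib 3.10.9. The number of arrays limits the precision.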

Additional observations from a re-analysis of the deposited data

How the results depend on the processing

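No member above the signal rule was 2 times higher or lower under the scalings, the pseudocount, the stricter filters, folds of 1.5 and 3 or without probe sets open to cross-hybridisation. Without a signal filter 1 member was higher and 2 were lower (Syt10, and Cplx3 with Sytl1). With the mean over all probe sets 1 was higher, Syt3 at 1.07, through a dim probe set. At a fold of 1.2, 1 member was higher after quantile normalization, 1 after centring and 1 after loess, against 4. The median log2 ratio was 0.0058, -0.015 and -0.0050 under these scalings, above the rule and over all members alike, as they remove the shift of the median gene. The median gene above the rule was then at -8.5e-05, -0.0032 and -0.00036, so the members' median was above it after quantile normalization and below it after centring and loess. The mean over all probe sets gave 0.109 above the rule and 0.133 over all members. With that mean the median gene above the rule was at 0.087, below the members' 0.109. The side of the median gene on which the members lay thus depended on the processing. Of 243 values of 41 named members, 212 moved by less than the SD between probe sets at their signal and 31 by more. The sign of small ratios, such as those of Snap25, Cplx1, Rab3a and Syt4, turned with the centring, and that of Stx1a, Vamp2 and Sv2b with the mean over all probe sets (1.19, -0.89 and -0.19), for Stx1a through a probe set whose control-side signal is below the trp controls. No paired analysis was possible because only 1 array was made of DRGs from either side. Low signal limits the 20 members below the rule.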

Other observations

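Members were also set apart by where they are used, a grouping chosen after the values were seen and given without a test. Of 22 members typical of neurons, such as Snap25, Vamp1, Cplx1, Syt4 and Rab3a, 16 were above the signal rule. Their median log2 ratio was 0.048, and 12 of the 16 lay below the median gene. Of 18 members found in most cell types, such as Snap23, Stx4, Vamp3 and Stx12, 17 were above the rule, with a median of 0.12, and 9 of the 17 lay above the median gene. The ranges overlapped, from -0.14 to 0.26 for the neuron-typical and from -0.48 to 0.26 for the other members. The 12 sensory neuron markers had a median of -0.036 and the 4 measured Schwann cell markers -0.0006. Satellite glia markers had 0.10 over the 3 above the rule, of which Apoe had -0.033. Whether the proportion of neurons differed between the sides was not tested.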
